A study of Mus musculus with 54 samples.

Results

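The comparison described here sets SmoA1 tumours collected 5 h after 1 Gy of radiation against SmoA1 tumours collected 5 h after sham treatment. Its members are the 24 files titled as SmoA1 with 1 Gy or as SmoA1 control, of 54 files in the series. The 4 files of each numbered sample were added up, which gave 3 libraries after 1 Gy (replicates 1, 2 and 3) and 3 sham libraries (replicates 1, 2 and 4). The labels give the strain of all 6 as SmoA1 homo and the tissue as brain tumor. SmoA1 is an activated form of Smoothened, the membrane protein that switches the hedgehog pathway on, so the sham tumours carry the same driver as the treated ones. The labels used here do not name the promoter that drives it, the age or the sex of the mice. The rest of the series holds Ptc het tumours and normal C57BL/6 cerebellum (BL6), each after 1 Gy and after sham, and both are used below only as a measure of how the SmoA1 values differ.

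Medulloblastoma of the hedgehog type grows from cerebellar granule neuron progenitors, which divide under hedgehog signalling and then leave the cell cycle to become granule neurons. Radiation breaks DNA, and damaged cells are known to activate p53, which stops the cycle and can start apoptosis. Irradiated tissue can also activate NF-kB, a family of transcription factors that induces cytokines and the endothelial adhesion molecules by which leukocytes leave the blood. The series' title concerns therapeutic radiation and the leptomeningeal spread of medulloblastoma, so genes of adhesion and migration are described as well.

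The 6 libraries were shallow, with 701217 to 842997 counts in genes, and 47.9% to 76.1% of their reads were unmapped. Of the uniquely mapped reads 70.8% to 75% lay over no annotated exon, and reads fell on both strands alike (50.4% to 50.7% on 1 strand), whereas in the 6 Ptc libraries 12.5% to 14.3% lay over no exon. The counts also spanned a narrow range of levels. Actb, a cytoskeletal gene of high expression, had 24.9 to 41.2 CPM, counts scaled to library size, after 1 Gy and 30.7 to 38.5 CPM with sham, against 714 to 2547 CPM in the Ptc libraries. A fold change in these libraries therefore cannot be read as a fold change in RNA. What genomic DNA or unspliced RNA contributed to the counts was not tested. None of the library measures separated the groups (exact two-sided permutation test, p = 0.4 to 1, with 0.10 the smallest p that 3 against 3 allows). Summed counts of Y-linked genes were 439 CPM in 1 Gy replicate 1 and 350 CPM in sham replicate 2, against 8.56 to 35.8 CPM in the other 4 libraries, so each group held 1 library of this kind, called high-Y below.

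In all, 363 of 16690 genes tested (2.17%) differed between 1 Gy and sham by edgeR's quasi-likelihood test at a Benjamini-Hochberg adjusted p under 0.05. Of these 331 rose (1.98%) and 32 fell (0.192%). These shares of all genes are the background for the counts of called genes in lists below. The log2 fold change was positive in 7890 of the 16690, the background for counts of positive and negative changes. DESeq2 called 209 higher and 16 lower (1.35% in all), and 2348 genes (14.1%) had an unadjusted p under 0.05. The genes that rose had a median fold of 3.13 and medians of 45.5 CPM after 1 Gy and 13.9 CPM with sham, and those that fell had a median fold of 0.544. The 3 libraries of 1 group lay wholly above or below those of the other for 3094 of all genes tested (18.5%). They did so in 329 of the 331 genes called higher and in all 32 called lower. Lack of overlap, given for single called genes below, therefore adds little to the call. The counts rested on single libraries: 149 genes rose and 9 fell without 1 Gy replicate 1, 103 and 6 without 1 Gy replicate 2, and 211 and 26 without sham replicate 1.

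The genes that rose were mostly of low expression in Ptc sham tumours. Of 276 protein-coding genes that rose, 105 had under 0.1 CPM per exonic kb in the Ptc sham libraries and 100 had 0.1 to 1 CPM per kb. These were 1.497% of the 7014 genes of the first class and 3.54% of the 2822 of the second, against 0.305% of the 5254 genes with 10 to 100 CPM per kb. In the lowest class only 570 genes passed the filter on low counts, and such a gene can pass it through the group in which it is high. Levels of some classes of genes also differed between the arms. Genes with 0.1 to 1 CPM per kb in Ptc sham had a median of 7.85 to 7.92 CPM per kb in the 1 Gy libraries and 5.83 to 7.02 CPM per kb in the sham libraries. Genes with 10 to 100 CPM per kb in Ptc sham had 14.1 to 14.4 CPM per kb in the 1 Gy libraries, below the 15.1 to 15.7 CPM per kb of the sham libraries. No library of either group overlapped the other in these 2 classes, whereas the groups overlapped at 1 to 10 CPM per kb (10.3 to 10.6 CPM per kb after 1 Gy and 10.5 to 10.8 CPM per kb with sham) and at 100 or more (14.5 to 17.6 CPM per kb after 1 Gy and 15.1 to 18.4 CPM per kb with sham). Fitted with offsets that follow the level in Ptc sham, 177 genes were higher and 55 lower, among them 162 of the 331 and 24 of the 32. The part of this shift between the arms in any single gene's change was not tested, and the calls of named genes that ended under these offsets are given below, with folds that moved by over 1.5 times.

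**Figure D1:**
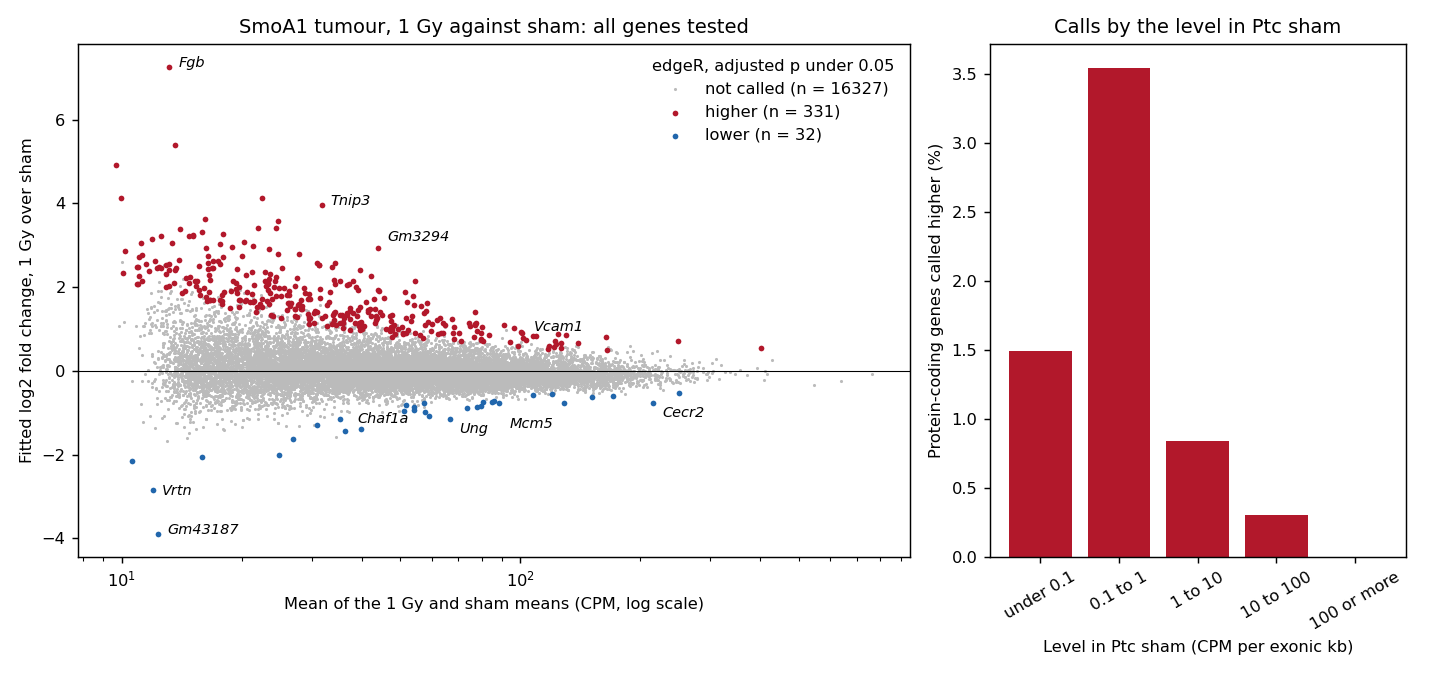
Left, the fitted log2 fold change of 1 Gy over sham (y axis) of each of 16690 genes against the mean of the 1 Gy and sham means (x axis, CPM, log scale), with 331 genes called higher in red and 32 called lower in blue. Right, the percentage of all protein-coding genes called higher (y axis), tested or not, by the gene's level in Ptc sham (x axis, CPM per exonic kb), which is 1.497% under 0.1, 3.54% at 0.1 to 1 and 0.305% at 10 to 100.

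Genes by which leukocytes hold to vessel walls were among those that rose. Of 12 adhesion genes tested 4 rose, beside 1.98% of all genes tested, and none fell. The summed level of all 13 in the list was 714 to 766 CPM in the 1 Gy libraries, against 447 to 491 CPM in the sham libraries. Summed levels, here and below, also lay apart in sets with no call, among them MAPK feedback, complement, endothelial genes and keratins. In other sets they overlapped. A separated sum is therefore not particular to a list. Among the genes that rose were Selp and Sele, whose products slow leukocytes on the vessel wall, and Vcam1, which holds them there. Selp (P-selectin, of activated endothelium and platelets) had 48.3, 48.6 and 40.1 CPM in the 1 Gy libraries, against 12.1, 16.7 and 12.3 CPM in the sham libraries, a rise of 3.29-fold (adjusted p = 0.00347). Sele (E-selectin, of cytokine-activated endothelium) had 36.2, 43.5 and 37.1 CPM in the 1 Gy libraries, against 6.03, 16.7 and 5.48 CPM in the sham libraries, a rise of 4.01-fold (adjusted p = 0.0065). In both genes every 1 Gy library lay above every sham library. Vcam1, the endothelial ligand of leukocyte integrins, had 131, 130.4 and 125 CPM in the 1 Gy libraries, against 70.8, 75.8 and 78.1 CPM in the sham libraries (1.72-fold, adjusted p = 0.00548). Among the 25 inflammatory effectors of the list 2 rose, one of them Tnfaip2, a TNF-induced gene (1.84-fold, adjusted p = 0.0343). The median log2 fold change over all 37 members tested was 0.49, and 0.43 with the offsets along the Ptc level, beside -0.02 and -0.03 over all genes. Tnfaip2 did not pass without 1 Gy replicate 1 or sham replicate 2 or 4 (adjusted p 0.0788 to 0.152), Sele and Tnfaip2 not without 1 Gy replicate 2 (adjusted p 0.0786 to 0.227). Selp, Sele and Tnfaip2 did not pass with the offsets along the Ptc level (adjusted p 0.0649 to 0.0833). Tnfaip2 did not pass by DESeq2 (adjusted p = 0.0668), Vcam1 and Tnfaip2 not without both high-Y libraries (adjusted p 0.0547 to 0.186), Tnfaip2 not with a Y-linked covariate (adjusted p = 0.0528). The fold became 2.18 in Selp and 2.5 in Sele with the offsets, 6.87 in Sele without both high-Y libraries, 6.66 in Sele without sham replicate 2.

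Some feedback inhibitors of NF-kB rose as well. Of 37 genes of the pathway tested 4 rose, beside 1.98% of all genes tested, and none fell. Of these 4, 3 were among the 11 feedback inhibitors, whose summed level was 624 to 751 CPM in the 1 Gy libraries, against 467 to 487 CPM in the sham libraries. Tnip3, which binds the ubiquitin editor A20 and restrains NF-kB, had the smallest p of all protein-coding genes, with 73.9, 62.6 and 43.1 CPM in the 1 Gy libraries, against 4.52, 5.14 and 1.37 CPM in the sham libraries. Its lowest 1 Gy library stood far above its highest sham library, a rise of 15.6-fold (adjusted p = 4.21e-05). Tnfaip3, which encodes A20 itself, had 110.1, 95.9 and 69.8 CPM in the 1 Gy libraries, against 49.7, 46.2 and 50.7 CPM in the sham libraries (1.88-fold, adjusted p = 0.0152). Bcl3, a nuclear member of the inhibitor family, rose 2.26-fold (adjusted p = 0.0207), and Traf1, a TNF receptor adaptor, rose 2.06-fold (adjusted p = 0.0177). The 5 NF-kB subunits all had positive log2 fold changes and none passed. Over the kinases and adaptors, 12 of 21 were positive. Birc3, an inhibitor of apoptosis that NF-kB is known to induce, was the single member of 44 apoptosis regulators to rise (1.93-fold, adjusted p = 0.0111), with 90.5, 72.8 and 72.8 CPM in the 1 Gy libraries, against 45.2, 38.5 and 38.4 CPM in the sham libraries. Tnfaip3, Bcl3, Traf1 and Birc3 did not pass without 1 Gy replicate 1 (adjusted p 0.0709 to 0.119), Tnfaip3, Bcl3 and Traf1 not without 1 Gy replicate 2 or sham replicate 1 (adjusted p 0.0522 to 0.16), Bcl3 not without 1 Gy replicate 3 (adjusted p = 0.0513). Bcl3 and Traf1 did not pass without sham replicate 4 (adjusted p 0.0591 to 0.0678). Bcl3 did not pass with the offsets along the Ptc level (adjusted p = 0.0519). Bcl3 did not pass by DESeq2 (adjusted p = 0.0571), Tnfaip3 and Birc3 not without both high-Y libraries (adjusted p 0.137 to 0.18). The fold became 8.6 in Tnip3 with the offsets.

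The upstream sequence of Tnip3 is shown because it had the strongest change in this group and holds an NF-kB match. The RefSeq promoter table on GRCm38.p6 covers 300 bases of each promoter, 250 before the start and 50 after it, and the 250 before it are printed 5′ to 3′, at chr6:65590148-65590397 on the plus strand. Capitals mark the match to the NF-kB consensus, which is read on both strands here.
Tnip3: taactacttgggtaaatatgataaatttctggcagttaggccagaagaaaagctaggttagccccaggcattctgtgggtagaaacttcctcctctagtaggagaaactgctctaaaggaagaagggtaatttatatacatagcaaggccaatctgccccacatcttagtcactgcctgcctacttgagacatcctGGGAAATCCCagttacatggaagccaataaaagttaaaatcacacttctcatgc
The consensus was present in 8.46% of all 32851 promoters, in 10.5% of promoters of the genes tested, in 17 of 40 promoters of the NF-kB list and in 37 of 286 promoters (12.9%) of genes that rose. Promoters were matched to the table by symbol.

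Cytokines, chemokines and their receptors held called genes as well. Of 78 such genes 63 passed the filter on low counts, which a gene can pass through the group in which it is high. Among these 63, 8 rose, beside 1.98% of all genes tested, none fell, and 56 had a positive log2 fold change. The summed level of all 78 was 3419 to 3563 CPM in the 1 Gy libraries, against 2459 to 2620.3 CPM in the sham libraries. Il1rn, the natural antagonist of the IL-1 receptor, had 61.9, 66.5 and 57.9 CPM in the 1 Gy libraries, against 22.6, 23.1 and 28.8 CPM in the sham libraries (2.49-fold, adjusted p = 0.00347). Cxcl11, an interferon-induced chemokine that attracts activated T cells, had 30.2, 21.7 and 22.3 CPM in the 1 Gy libraries, against 4.52, 7.71 and 2.74 CPM in the sham libraries (4.74-fold, adjusted p = 0.012). Both were higher in every 1 Gy library than in any sham library. Tgfb1, an immunosuppressive growth factor, had 69.4, 81.8 and 86.1 CPM in the 1 Gy libraries, against 22.6, 51.4 and 35.6 CPM in the sham libraries (2.13-fold, adjusted p = 0.0142), and Il33, an alarmin, had 75.4, 51.1 and 78.7 CPM in the 1 Gy libraries, against 33.2, 37.2 and 27.4 CPM in the sham libraries (2.07-fold, adjusted p = 0.0165). Cxcr2, the neutrophil chemokine receptor, had 45.3, 49.8 and 40.1 CPM in the 1 Gy libraries, against 12.1, 26.97 and 10.96 CPM in the sham libraries (2.65-fold, adjusted p = 0.0208). Also called were Csf3, the granulocyte growth factor, and Il18r1 and Il18rap, the neighbouring genes of the IL-18 receptor. The median log2 fold change was 0.54, and 0.36 with the offsets along the Ptc level, under which 2 of the 8 passed. Without sham replicate 1 the list also held 2 calls. Il1b, the inflammatory ligand at the IL-1 receptor, did not pass, with 21, 35 and 23 counts in the 1 Gy libraries and 12, 17 and 4 counts in the sham libraries (adjusted p = 0.0774). Il1bos, an antisense gene that overlaps Il1b, rose, with 30, 22 and 17 counts after 1 Gy and 2, 5 and 0 counts with sham (adjusted p = 0.00318), but the counts take no account of strand and reads of the 2 genes cannot be told apart. Il1b and Il1bos were chosen after their values were seen. Cxcl11, Il33, Cxcr2, Csf3 and Il18rap did not pass without 1 Gy replicate 1 (adjusted p 0.0967 to 0.135), Cxcl11, Tgfb1, Cxcr2, Csf3, Il18r1 and Il18rap not without 1 Gy replicate 2 (adjusted p 0.0804 to 0.178), Il33, Csf3, Il18r1 and Il18rap not without 1 Gy replicate 3 (adjusted p 0.0639 to 0.172). Cxcl11, Tgfb1, Il33, Cxcr2, Csf3, Il18r1 and Il18rap did not pass without sham replicate 1 (adjusted p 0.0504 to 0.146), Csf3, Il18r1 and Il18rap not without sham replicate 2 (adjusted p 0.0526 to 0.0927), Cxcl11, Il33, Cxcr2 and Csf3 not without sham replicate 4 (adjusted p 0.0543 to 0.0707). Il1rn, Cxcl11, Cxcr2, Csf3, Il18r1 and Il18rap did not pass with the offsets along the Ptc level (adjusted p 0.148 to 0.59). Csf3, Il18r1 and Il18rap did not pass by DESeq2 (adjusted p 0.0526 to 0.113), Cxcl11, Il33, Csf3, Il18r1 and Il18rap not without both high-Y libraries (adjusted p 0.0513 to 0.137), Csf3 and Il18rap not with a Y-linked covariate (adjusted p 0.0617 to 0.0625). Cxcl11, Csf3, Il18r1 and Il18rap did not pass with offsets along abundance (adjusted p 0.0534 to 0.14). The fold became 1.65 in Il1rn, 2.85 in Cxcl11, 2.06 in Csf3, 1.65 in Il18r1, 1.32 in Il18rap and 5.46 in Il1bos with the offsets, 16.7 in Il1bos without both high-Y libraries, 20.5 in Il1bos without sham replicate 2.

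Of 55 genes of the type I interferon response 4 rose, beside 1.98% of all genes tested, and none fell. A positive log2 fold change was found in 48. The median over the list was 0.36, or 0.22 with the offsets along the Ptc level. Oas3, which senses double-stranded RNA and activates RNase L, had 76.9, 48.6 and 47.5 CPM in the 1 Gy libraries, against 19.6, 14.1 and 5.48 CPM in the sham libraries (4.4-fold, adjusted p = 0.00246). Mx1, an antiviral GTPase, had 70.9, 58.8 and 63.9 CPM in the 1 Gy libraries, against 36.2, 23.1 and 13.7 CPM in the sham libraries (2.67-fold, adjusted p = 0.0065). The groups did not overlap in either gene, although the sham libraries were spread widely. Zbp1, a sensor of unusual nucleic acids, rose 2.19-fold (adjusted p = 0.0375), and Gbp2, an interferon-induced GTPase, rose 2.1-fold (adjusted p = 0.045). None of 20 antigen presentation genes and none of 16 complement genes passed. Tap1, the peptide transporter that feeds MHC class I, came nearest, with 81.5, 69.02 and 83.2 CPM in the 1 Gy libraries, against 55.8, 43.7 and 42.5 CPM in the sham libraries (adjusted p = 0.0544), and Psmb8, an immunoproteasome subunit, had an adjusted p of 0.116. Cd55 and C3 of the complement list had adjusted p = 0.0746 and 0.15. Mx1, Zbp1 and Gbp2 did not pass without 1 Gy replicate 1 (adjusted p 0.0514 to 0.173), Zbp1 and Gbp2 not without 1 Gy replicate 2 or 3 or sham replicate 4 (adjusted p 0.0863 to 0.135), Zbp1 not without sham replicate 1 (adjusted p = 0.127). Gbp2 did not pass without sham replicate 2 (adjusted p = 0.117). Zbp1 and Gbp2 did not pass with the offsets along the Ptc level (adjusted p 0.0629 to 0.167). Zbp1 and Gbp2 did not pass by DESeq2 (adjusted p 0.0921 to 0.104), Mx1, Zbp1 and Gbp2 not without both high-Y libraries (adjusted p 0.0706 to 0.265), Gbp2 not with a Y-linked covariate (adjusted p = 0.0668). Zbp1 and Gbp2 did not pass with offsets along abundance (adjusted p 0.0647 to 0.0683). The fold became 2.77 in Oas3 with the offsets.

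Some markers of blood leukocytes rose in the same libraries. Of 26 neutrophil and monocyte genes 15 passed the filter on low counts, and 7 of these rose, beside 1.98% of all genes tested. Since such a gene can pass the filter through the group in which it is high, the 7 are no share of all 26. The summed level of the whole list was 603 to 769 CPM in the 1 Gy libraries, against 269 to 372 CPM in the sham libraries. Hdc, which makes histamine, had 112, 79.2 and 53.5 CPM in the 1 Gy libraries, against 10.6, 39.8 and 13.7 CPM in the sham libraries (3.68-fold, adjusted p = 0.0047). Fpr1, the receptor for bacterial formyl peptides, had 21.1, 19.2 and 16.3 CPM in the 1 Gy libraries, against 3.01, 5.14 and 1.37 CPM in the sham libraries (5.62-fold, adjusted p = 0.0161). Mmp8, the neutrophil collagenase, had 34.7, 48.6 and 26.7 CPM in the 1 Gy libraries, against 9.04, 7.71 and 16.4 CPM in the sham libraries (3.31-fold, adjusted p = 0.0153). No gene of these 3 overlapped between groups. Cxcr2, given above, Trem1 and Padi4 rose too. Ly6g, a defining surface marker of mouse neutrophils, was near 0, with 5, 3 and 0 counts in the 1 Gy libraries and 1, 0 and 0 counts in the sham libraries. With the offsets along the Ptc level 2 of the 7 passed, and without 1 Gy replicate 1 the list held 1 call. Of 22 T, NK and B cell genes 7 could be tested and 1 rose, Il2rb, the shared IL-2 and IL-15 receptor chain, with 46.8, 33.2 and 43.1 CPM in the 1 Gy libraries, against 13.6, 11.6 and 5.48 CPM in the sham libraries (3.97-fold, adjusted p = 0.00387). The summed level of that list overlapped, at 311 to 431 CPM in the 1 Gy libraries, against 197 to 327 CPM in the sham libraries. Of 29 microglia and macrophage genes 1 rose, Lyve1, a marker of border macrophages and lymphatic endothelium (5.42-fold, adjusted p = 0.0142), and the list's summed level was 1159 to 1175 CPM in the 1 Gy libraries, against 1007 to 1028 CPM in the sham libraries. In bulk tissue more cells of a type and more RNA per cell cannot be told apart. Hdc, Fpr1, Mmp8, Trem1, Padi4 and Lyve1 did not pass without 1 Gy replicate 1 (adjusted p 0.0581 to 0.198), Fpr1, Mmp8, Trem1, Padi4 and Lyve1 not without 1 Gy replicate 2 or sham replicate 1 (adjusted p 0.0629 to 0.175), Trem1 not without 1 Gy replicate 3 (adjusted p = 0.055). Mmp8 did not pass without sham replicate 2 (adjusted p = 0.0537), Fpr1, Trem1 and Padi4 not without sham replicate 4 (adjusted p 0.0714 to 0.0934). Fpr1, Mmp8, Trem1, Padi4 and Il2rb did not pass with the offsets along the Ptc level (adjusted p 0.0727 to 0.255). Hdc, Fpr1 and Trem1 did not pass by DESeq2 (adjusted p 0.0727 to 0.422), Fpr1, Mmp8 and Padi4 not without both high-Y libraries (adjusted p 0.0614 to 0.103), Fpr1, Trem1 and Padi4 not with offsets along abundance (adjusted p 0.0532 to 0.167). The fold became 2.54 in Trem1, 2.53 in Padi4 and 2.5 in Il2rb with the offsets, 13.1 in Trem1 and 14.2 in Lyve1 without both high-Y libraries, 6.62 in Hdc, 13.3 in Trem1, 6.75 in Padi4 and 14.3 in Lyve1 without sham replicate 2.

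**Figure D2:**
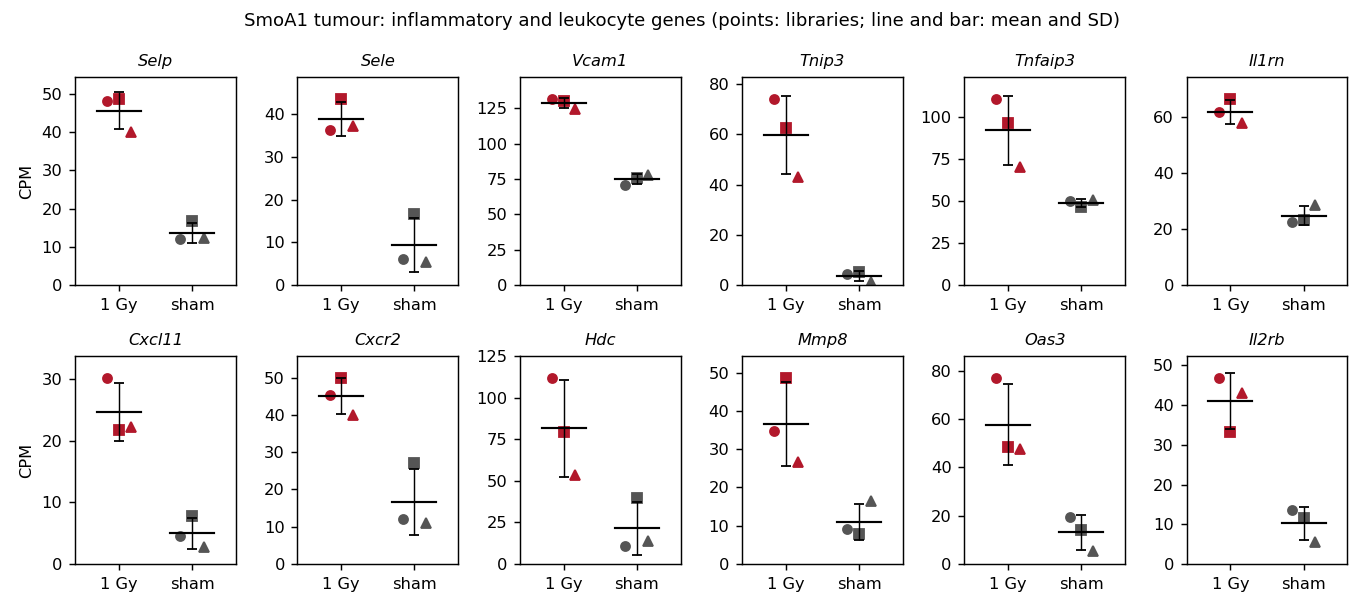
Level (y axis, CPM, starting at 0) of 12 inflammatory and leukocyte genes in 3 libraries after 1 Gy (left of each panel) and 3 sham libraries (right). Points are libraries, with circle, square and triangle for replicates 1, 2 and 3 after 1 Gy and 1, 2 and 4 with sham, and the line and bar give the mean and SD. In each of the 12 genes every 1 Gy library lies above every sham library, as in 329 of the 331 genes called higher.

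Immediate early genes, which cells switch on within minutes of a stimulus, were represented by 4 called genes of 37, all higher. The share higher over all genes tested was 1.98%. Fosb, an AP-1 subunit, had 84.5, 101 and 66.8 CPM in the 1 Gy libraries, against 27.1, 44.96 and 13.7 CPM in the sham libraries (2.91-fold, adjusted p = 0.00413). Bdnf, a neurotrophin, had 54.3, 74.1 and 56.4 CPM in the 1 Gy libraries, against 22.6, 16.7 and 27.4 CPM in the sham libraries (2.79-fold, adjusted p = 0.00347). In both genes the lowest 1 Gy library exceeded the highest sham library. Nr4a3, an orphan nuclear receptor, rose 1.94-fold (adjusted p = 0.0183), and Npas4, a factor induced by neuronal activity, rose 1.85-fold (adjusted p = 0.0471). None of 20 genes of MAPK feedback passed. The smallest adjusted p there were 0.327 for Dusp10 and 0.389 for Dusp5, both phosphatases of MAP kinases. Srxn1, which repairs oxidised peroxiredoxins, was the single riser among 23 oxidative stress genes (2.12-fold, adjusted p = 0.0259). Of 34 genes of hypoxia and glycolysis 3 rose, namely Ndrg1, a stress-responsive gene (2.7-fold, adjusted p = 0.00311), Angptl4, a lipase inhibitor (2.5-fold, adjusted p = 0.0176), and Slc16a3, the lactate exporter (1.82-fold, adjusted p = 0.0378). None of 35 heat shock and unfolded protein genes and none of 24 sterol synthesis genes passed. Nr4a3, Npas4, Srxn1 and Slc16a3 did not pass without 1 Gy replicate 1 (adjusted p 0.0582 to 0.202), Fosb, Bdnf, Nr4a3, Npas4, Srxn1, Angptl4 and Slc16a3 not without 1 Gy replicate 2 (adjusted p 0.0518 to 0.216), Npas4, Angptl4 and Slc16a3 not without 1 Gy replicate 3 (adjusted p 0.0517 to 0.129). Nr4a3, Npas4, Srxn1, Angptl4 and Slc16a3 did not pass without sham replicate 1 (adjusted p 0.053 to 0.0734), Npas4, Srxn1 and Slc16a3 not without sham replicate 2 (adjusted p 0.0671 to 0.139), Nr4a3, Npas4 and Slc16a3 not without sham replicate 4 (adjusted p 0.0572 to 0.158). Npas4 and Slc16a3 did not pass with the offsets along the Ptc level (adjusted p 0.0818 to 0.158). Npas4 and Slc16a3 did not pass by DESeq2 (adjusted p 0.101 to 0.134), Npas4, Srxn1 and Slc16a3 not without both high-Y libraries (adjusted p 0.128 to 0.327), Npas4 not with a Y-linked covariate (adjusted p = 0.0665). Npas4 did not pass with offsets along abundance (adjusted p = 0.0645).

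Genes of adhesion, migration and dissemination moved in both directions, with 4 of 60 higher and 1 lower. The shares over all genes tested were 1.98% higher and 0.192% lower. Cdh1 (E-cadherin), the epithelial adhesion molecule, had 69.4, 48.6 and 49.01 CPM in the 1 Gy libraries, against 19.6, 19.3 and 19.2 CPM in the sham libraries (2.85-fold, adjusted p = 0.00347). Cd44, the hyaluronan receptor, had 113, 109.9 and 101 CPM in the 1 Gy libraries, against 58.8, 79.6 and 38.4 CPM in the sham libraries (1.82-fold, adjusted p = 0.0244). Neither gene's groups overlapped. Plaur, the urokinase receptor, rose 2.18-fold (adjusted p = 0.0426), and Mmp8 belongs to this list too. Sparc, a collagen-binding matrix protein, fell, with 43.8, 28.1 and 32.7 CPM in the 1 Gy libraries, against 63.3, 61.7 and 78.1 CPM in the sham libraries (0.512-fold, adjusted p = 0.0205). None of 19 integrins and none of 68 axon guidance genes passed. Neo1, a netrin and repulsive guidance receptor, had an adjusted p of 0.0582 at 0.725-fold. Among 15 ligands of the BMP and TGF-beta families 3 rose, Tgfb1, Inhba and Bmp2, and none of 31 receptors, SMADs and antagonists passed. Inhba, the activin A subunit, had 75.4, 72.8 and 57.9 CPM in the 1 Gy libraries, against 24.1, 34.7 and 21.9 CPM in the sham libraries (2.53-fold, adjusted p = 0.00347), and Bmp2 had 37.7, 40.9 and 57.9 CPM in the 1 Gy libraries, against 6.03, 25.7 and 8.22 CPM in the sham libraries (3.28-fold, adjusted p = 0.0186). Sham replicate 2 was the highest sham library in both. Wnt11 was the 1 called gene of 40 in the WNT list (3.25-fold, adjusted p = 0.0325). Cd44, Plaur, Bmp2 and Wnt11 did not pass without 1 Gy replicate 1 (adjusted p 0.0557 to 0.139), Cd44, Plaur, Sparc, Bmp2 and Wnt11 not without 1 Gy replicate 2 or sham replicate 4 (adjusted p 0.0604 to 0.209), Sparc, Bmp2 and Wnt11 not without 1 Gy replicate 3 (adjusted p 0.0576 to 0.0843). Cd44, Plaur and Bmp2 did not pass without sham replicate 1 (adjusted p 0.0589 to 0.0849), Plaur and Wnt11 not without sham replicate 2 (adjusted p 0.104 to 0.116). Plaur, Bmp2 and Wnt11 did not pass with the offsets along the Ptc level (adjusted p 0.0771 to 0.186). Plaur, Sparc and Wnt11 did not pass by DESeq2 (adjusted p 0.0668 to 0.153), Cdh1, Plaur and Wnt11 not without both high-Y libraries (adjusted p 0.0614 to 0.216), Plaur and Wnt11 not with a Y-linked covariate (adjusted p 0.0515 to 0.061). Plaur and Wnt11 did not pass with offsets along abundance (adjusted p 0.079 to 0.118), Plaur not on 1 strand column (adjusted p = 0.0519). The fold became 6.72 in Bmp2 without both high-Y libraries, 6.24 in Bmp2 without sham replicate 2.

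Some genes of mature cerebellar neurons rose, where 1.98% of all genes tested rose. A single call in a list therefore says little of that list. Of 20 mature granule neuron markers 1 rose, of 16 Purkinje markers 1 and of 17 GABA and glycine interneuron markers 2, and the medians of the log2 fold change were 0.41, 0.53 and 0.33. Slc6a5, the glycine transporter of inhibitory interneurons, had 93.5, 61.3 and 56.4 CPM in the 1 Gy libraries, against 22.6, 23.1 and 16.4 CPM in the sham libraries (3.36-fold, adjusted p = 0.00153). Gad1, which makes GABA, had 122, 114 and 83.2 CPM in the 1 Gy libraries, against 54.3, 42.4 and 49.3 CPM in the sham libraries (2.2-fold, adjusted p = 0.00308). The 1 Gy libraries lay above the sham libraries in both, with replicate 3 the lowest of them. Calb1 (calbindin, of Purkinje cells) rose 1.69-fold (adjusted p = 0.0375), and Chn2, a RAC GTPase-activating protein of granule neurons, rose 1.87-fold (adjusted p = 0.0433). Sv2c, a synaptic vesicle protein, had 125, 106 and 105 CPM in the 1 Gy libraries, against 34.7, 57.8 and 32.9 CPM in the sham libraries (2.65-fold, adjusted p = 0.00122) and was the 1 called gene of 39 in its list. Of 62 neurotransmitter receptors 4 rose, the serotonin receptors Htr5a (3.91-fold, adjusted p = 0.00647), Htr7 (6.56-fold, adjusted p = 0.0135) and Htr1b (2.98-fold, adjusted p = 0.0159) and the NMDA receptor subunit Grin2a (2.04-fold, adjusted p = 0.0161). Of 55 voltage-gated channels 2 rose, beside 1.98% of all genes tested. Both were of the sodium family, Scn4b (1.98-fold, adjusted p = 0.0205) and Scn9a (2.95-fold, adjusted p = 0.0303). Of the glial lists, that of astrocytes had 1 riser, Etnppl (1.86-fold, adjusted p = 0.0259), that of mature oligodendrocytes had 1, Opalin (4.94-fold, adjusted p = 0.0446), and none of 18 oligodendrocyte precursor genes passed. Neither of the 2 unipolar brush cell genes with the smallest p, Plcb4 and Calb2, passed (adjusted p = 0.0744 and 0.189). The summed level of Purkinje markers was 1090.1 to 1542 CPM in the 1 Gy libraries, against 998 to 1106 CPM in the sham libraries, so it overlapped between the groups, while that of interneuron markers did not, at 853 to 1147 CPM in the 1 Gy libraries, against 804 to 821 CPM in the sham libraries. Calb1, Chn2, Htr5a, Htr7, Htr1b, Grin2a, Scn4b, Scn9a, Etnppl and Opalin did not pass without 1 Gy replicate 1 (adjusted p 0.0695 to 0.259), Calb1, Chn2, Htr5a, Htr1b, Grin2a, Scn9a, Etnppl and Opalin not without 1 Gy replicate 2 (adjusted p 0.064 to 0.256), Htr7 and Opalin not without 1 Gy replicate 3 (adjusted p 0.0637 to 0.0672). Calb1, Chn2, Htr7, Scn4b, Scn9a and Etnppl did not pass without sham replicate 1 (adjusted p 0.0521 to 0.128), Calb1, Chn2, Grin2a, Scn9a and Opalin not without sham replicate 2 (adjusted p 0.0683 to 0.168), Calb1, Chn2, Htr1b, Grin2a, Scn4b, Etnppl and Opalin not without sham replicate 4 (adjusted p 0.0528 to 0.157). Htr7, Scn9a and Opalin did not pass with the offsets along the Ptc level (adjusted p 0.0635 to 0.148). Calb1, Chn2, Grin2a, Scn4b, Etnppl and Opalin did not pass by DESeq2 (adjusted p 0.0557 to 0.251), Gad1, Calb1, Chn2, Htr5a, Htr1b, Grin2a, Scn4b, Scn9a, Etnppl and Opalin not without both high-Y libraries (adjusted p 0.0559 to 0.361), Chn2 and Opalin not with a Y-linked covariate (adjusted p 0.0541 to 0.0731). Htr7, Scn9a and Opalin did not pass with offsets along abundance (adjusted p 0.0557 to 0.256), Chn2 not on 1 strand column (adjusted p = 0.0519). The fold became 12.04 in Htr7 and 3.03 in Opalin without both high-Y libraries, 14.3 in Opalin without sham replicate 1, 13.4 in Htr7 without sham replicate 2, 4.68 in Scn9a without sham replicate 4.

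Of 19 genes of choroid plexus and ciliated ependyma tested 3 rose, beside 1.98% of all genes tested. The summed level of all 29 was 908 to 1334 CPM in the 1 Gy libraries, against 715 to 812 CPM in the sham libraries, the highest being 1 Gy replicate 2. Prlr, the prolactin receptor, which choroid plexus expresses strongly, had 21.1, 85.6 and 17.8 CPM in the 1 Gy libraries, against 4.52, 7.71 and 4.11 CPM in the sham libraries (7.53-fold, adjusted p = 0.0105). Dnah6, a dynein heavy chain of motile cilia, had 69.4, 102 and 78.7 CPM in the 1 Gy libraries, against 19.6, 33.4 and 19.2 CPM in the sham libraries (3.44-fold, adjusted p = 0.000804). Dnah10 and Dnah11, of the same family, rose 4.46-fold (adjusted p = 0.00051) and 2.41-fold (adjusted p = 0.0127), so 3 of 14 dynein heavy chains tested were called. The 1 Gy replicate 2 library was the highest in all 4 genes. With the offsets along the Ptc level the list's median log2 fold change was 0.03, against 0.34 without. Other lists of vessel, meningeal and blood cells had few calls. None of 24 endothelial genes and none of 13 pericyte genes passed, Dcn (decorin) was the 1 of 22 fibroblast and leptomeningeal genes to rise (2.29-fold, adjusted p = 0.0177), and Slc4a1, the anion exchanger of red cells, was 1 of 5 erythrocyte and platelet genes tested (5.51-fold, adjusted p = 0.012). Esam, an endothelial junction protein, had 45.3, 62.6 and 65.3 CPM in the 1 Gy libraries, against 34.7, 33.4 and 32.9 CPM in the sham libraries without passing (adjusted p = 0.0756). Skeletal muscle markers, which a dissection can pick up, had 766 to 1093 CPM in the 1 Gy libraries, against 493 to 1625 CPM in the sham libraries in sum, with sham replicate 4 the highest, and Mymx, a myoblast fusion peptide, fell to 0.242-fold (adjusted p = 0.0204). Dcn, Slc4a1 and Mymx did not pass without 1 Gy replicate 1 (adjusted p 0.0556 to 0.112), Prlr, Dnah11, Dcn, Slc4a1 and Mymx not without 1 Gy replicate 2 (adjusted p 0.0895 to 0.225), Mymx not without 1 Gy replicate 3 or sham replicate 4 (adjusted p 0.0712 to 0.173). Prlr, Dcn, Slc4a1 and Mymx did not pass without sham replicate 1 (adjusted p 0.0521 to 0.068), Slc4a1 not without sham replicate 2 (adjusted p = 0.0628). Prlr did not pass with the offsets along the Ptc level (adjusted p = 0.103). Prlr and Mymx did not pass by DESeq2 (adjusted p 0.0575 to 0.0668), Slc4a1 not without both high-Y libraries (adjusted p = 0.0704), Slc4a1 not with offsets along abundance (adjusted p = 0.122). The fold became 4.14 in Prlr and 2.93 in Dnah10 with the offsets, 3.46 in Prlr without 1 Gy replicate 2, 11.9 in Prlr without both high-Y libraries.

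The largest increases were of genes near 0 with sham. Fgb, the fibrinogen beta chain, had 22.6, 28.1 and 28.2 CPM in the 1 Gy libraries, 56 counts in all, and no count in any sham library, which is at least 19.1-fold higher against 3 counts over the sham group (adjusted p = 0.00051). Ptger3, a prostaglandin E2 receptor, had 15.1, 16.6 and 25.2 CPM in the 1 Gy libraries, against 1.51, 1.28 and 0 CPM in the sham libraries (17.4-fold, adjusted p = 0.00347). Igf2bp2, an oncofetal RNA-binding protein, had 54.3, 47.3 and 57.9 CPM in the 1 Gy libraries, against 9.04, 11.6 and 5.48 CPM in the sham libraries (5.97-fold, adjusted p = 0.000413). None of the 3 overlapped between groups. Gm3294, a noncoding gene with near copies that can share its reads, had the smallest p of all genes, with 92.04, 88.2 and 53.5 CPM in the 1 Gy libraries, against 10.6, 10.3 and 9.59 CPM in the sham libraries (7.6-fold, adjusted p = 4.21e-05). Solute carriers contributed 15 of 294 tested genes, all higher, beside 1.98% of all genes tested. Among them were Slc10a6, a transporter of sulfated steroids (12.3-fold, adjusted p = 0.00153), Slc5a1, the intestinal glucose transporter (11.9-fold, adjusted p = 0.00155), and Slc26a7, an anion exchanger (5.61-fold, adjusted p = 0.00051). Other large increases were those of Tnn, the matrix protein tenascin-N (10.4-fold, adjusted p = 0.00173), Scin, an actin-severing protein (8.42-fold, adjusted p = 0.000839), Ppl, a protein of the epithelial cell envelope (4.45-fold, adjusted p = 0.000694), Dhrs9, a retinol dehydrogenase (10.6-fold, adjusted p = 0.00274), and Ctla4, the inhibitory T cell receptor (9.27-fold, adjusted p = 0.0111). Serpina3i, an acute-phase protease inhibitor, rose 9.94-fold (adjusted p = 0.00218), but it has near-identical neighbours and its reads may be shared with them. Vwa5b1 (10.6-fold, adjusted p = 0.00158), Sp9, a factor of interneuron development (8.28-fold, adjusted p = 0.0117), and the transcripts Ptprv (5.33-fold, adjusted p = 0.000304) and Gm48786 (17.4-fold, adjusted p = 0.000304) complete the set. All sham counts of Ctla4 were in replicate 1. Ctla4 did not pass without 1 Gy replicate 1 (adjusted p = 0.0653), Ctla4 and Sp9 not without 1 Gy replicate 2 (adjusted p 0.126 to 0.129), Sp9 not without 1 Gy replicate 3 or sham replicate 1 or 4 (adjusted p 0.0557 to 0.0677). Ctla4 and Sp9 did not pass with the offsets along the Ptc level (adjusted p 0.104 to 0.108). Ctla4 did not pass by DESeq2 (adjusted p = 0.473), Ctla4 not without both high-Y libraries (adjusted p = 0.0697), Ptger3, Ctla4 and Sp9 not with offsets along abundance (adjusted p 0.054 to 0.13). The fold became 11.4 in Ptger3, 3.41 in Igf2bp2, 7.7 in Slc10a6, 5.87 in Dhrs9, 5.21 in Ctla4, 5.84 in Serpina3i, 4.48 in Sp9, 3.08 in Ptprv and 9.8 in Gm48786 with the offsets, 18.8 in Slc10a6, 15.5 in Serpina3i, 31.6 in Vwa5b1 and 25.7 in Sp9 without both high-Y libraries, 18.9 in Slc10a6, 6.11 in Ctla4, 18.1 in Serpina3i, 28.5 in Vwa5b1, 22.9 in Sp9 and 26.8 in Gm48786 without sham replicate 2, 26.03 in Dhrs9 without sham replicate 4.

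Among the genes that fell, 0.192% of all genes tested, were 4 of DNA replication and repair. Of 64 genes of G1/S and replication 2 fell and none rose, 58 had a negative log2 fold change, and the summed level was 4148 to 4808 CPM in the 1 Gy libraries, against 5238 to 5861 CPM in the sham libraries. Chaf1a, which places new histones behind the replication fork, had 30.2, 46.01 and 37.1 CPM in the 1 Gy libraries, against 60.3, 79.6 and 101 CPM in the sham libraries (0.473-fold, adjusted p = 0.0127). Mcm5, a subunit of the replicative helicase, had 64.9, 60.1 and 71.3 CPM in the 1 Gy libraries, against 122, 97.6 and 114 CPM in the sham libraries (0.589-fold, adjusted p = 0.0152). The sham libraries lay above the 1 Gy libraries in both genes. Pclaf, a PCNA-binding factor of S phase outside the list, fell with them, with 43.8, 47.3 and 63.9 CPM in the 1 Gy libraries, against 75.4, 97.6 and 114 CPM in the sham libraries (0.537-fold, adjusted p = 0.0183). Of 62 genes of DNA damage sensing and repair 2 fell and none rose, and the summed level was 4129.5 to 4778 CPM in the 1 Gy libraries, against 5164 to 5282 CPM in the sham libraries. Ung, which removes uracil from DNA and is made in S phase, had 34.7, 35.8 and 54.95 CPM in the 1 Gy libraries, against 79.9, 91.2 and 104 CPM in the sham libraries (0.453-fold, adjusted p = 0.00426), the fall with the smallest p in either list. Chek2, the checkpoint kinase below ATM, had 40.7, 43.5 and 43.1 CPM in the 1 Gy libraries, against 61.8, 84.8 and 69.9 CPM in the sham libraries (0.586-fold, adjusted p = 0.0449). None of these 5 genes' groups overlapped. The medians of the log2 fold change were -0.25 for replication and -0.24 for repair, and -0.21 for each with the offsets along the Ptc level. Chaf1a, Mcm5, Pclaf and Chek2 did not pass without 1 Gy replicate 1 (adjusted p 0.0709 to 0.157), Mcm5, Pclaf, Ung and Chek2 not without 1 Gy replicate 2 (adjusted p 0.0599 to 0.161), Chek2 not without 1 Gy replicate 3 (adjusted p = 0.0865). Mcm5 did not pass without sham replicate 1 (adjusted p = 0.0704), Pclaf and Chek2 not without sham replicate 2 (adjusted p 0.0512 to 0.174), Chaf1a, Pclaf and Chek2 not without sham replicate 4 (adjusted p 0.0551 to 0.0732). Chek2 did not pass with the offsets along the Ptc level (adjusted p = 0.0649). Chek2 did not pass by DESeq2 (adjusted p = 0.178), Chaf1a, Pclaf, Ung and Chek2 not without both high-Y libraries (adjusted p 0.0513 to 0.349), Chek2 not with a Y-linked covariate (adjusted p = 0.0617). Chek2 did not pass with offsets along abundance (adjusted p = 0.054), Chek2 not on 1 strand column (adjusted p = 0.0531).

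Upstream sequences of Ung and Chaf1a, the called genes of these lists with the smallest p, are shown to compare their E2F matches, from the same RefSeq table on GRCm38.p6. Ung lies at chr5:114130185-114130434 and Chaf1a at chr17:56040166-56040415, both on the plus strand and 250 bases before the start. Capitals mark a match to TTCCCGC or TTGGCGC on either strand.
Ung: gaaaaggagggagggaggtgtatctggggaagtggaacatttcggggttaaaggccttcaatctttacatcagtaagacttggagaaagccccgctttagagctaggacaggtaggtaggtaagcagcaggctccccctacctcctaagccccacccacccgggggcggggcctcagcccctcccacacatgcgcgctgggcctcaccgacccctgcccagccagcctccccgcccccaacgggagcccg
Chaf1a: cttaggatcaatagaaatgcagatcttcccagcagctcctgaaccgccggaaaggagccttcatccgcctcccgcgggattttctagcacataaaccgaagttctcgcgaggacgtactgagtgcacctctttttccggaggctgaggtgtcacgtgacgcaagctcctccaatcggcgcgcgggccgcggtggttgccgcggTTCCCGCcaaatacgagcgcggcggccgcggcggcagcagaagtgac
Chaf1a holds 1 match and Ung none in this window. A match was present in 6.81% of all promoters, in 11.1% of promoters of the genes tested, in 29 of 62 promoters of the replication list (46.8%) and in 23 of 57 of the repair list (40.4%). Among the genes that fell, 6 of 25 promoters held one (24%), and among those that rose 20 of 286 (6.99%).

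No mitotic gene passed. Of 54 tested 49 had a negative log2 fold change, and the summed level was 4001 to 4704 CPM in the 1 Gy libraries, against 4946 to 5279 CPM in the sham libraries. The median log2 fold change was -0.26, and -0.21 with the offsets along the Ptc level. Over all genes these medians were -0.02 and -0.03. Ncaph, a condensin subunit, had 66.4, 60.1 and 65.3 CPM in the 1 Gy libraries, against 103, 86.1 and 98.6 CPM in the sham libraries (adjusted p = 0.0751), and Kif11, a spindle motor, had 69.4, 65.2 and 96.5 CPM in the 1 Gy libraries, against 113, 112 and 109.6 CPM in the sham libraries (adjusted p = 0.107). Of the replication-dependent histones 5 of the 6 tested had a positive log2 fold change and none passed, with Hist1h1d at 51.3, 47.3 and 46.04 CPM in the 1 Gy libraries, against 25.6, 30.8 and 32.9 CPM in the sham libraries (adjusted p = 0.159). Of 23 genes of MYC and growth 1 fell, beside 0.192% of all genes tested. It was Mycl, a member of the MYC family, with 58.8, 48.6 and 59.4 CPM in the 1 Gy libraries, against 99.5, 89.9 and 111 CPM in the sham libraries (0.554-fold, adjusted p = 0.0111). Sox11, a factor of immature neurons, was the 1 of 28 granule progenitor and lineage genes to fall, with 125, 148 and 134 CPM in the 1 Gy libraries, against 237, 188 and 197 CPM in the sham libraries (0.66-fold, adjusted p = 0.0159). Rbpj, the DNA-binding partner of Notch, was the 1 of 21 Notch genes to fall, with 87.5, 79.2 and 92.1 CPM in the 1 Gy libraries, against 127, 121 and 139.7 CPM in the sham libraries (0.667-fold, adjusted p = 0.0373). Groups overlapped in none of these 3 genes. Cecr2, a bromodomain chromatin remodeller, had the smallest p of the genes that fell, with 149, 166 and 165 CPM in the 1 Gy libraries, against 244, 263 and 307 CPM in the sham libraries (0.59-fold, adjusted p = 0.00239). None of 40 chromatin regulators passed, though 34 had a negative log2 fold change. The median of that list was -0.19, and -0.12 with the offsets along the Ptc level. Setdb1 and Arid1a came nearest (adjusted p = 0.0876 and 0.0884). Further falls were those of Vrtn (0.14-fold, adjusted p = 0.00753), Fam186a (0.323-fold, adjusted p = 0.0152), Tdrd6 (0.522-fold, adjusted p = 0.0332), Nkain3 (0.509-fold, adjusted p = 0.0241), 4930430F08Rik (0.449-fold, adjusted p = 0.0333), Gtf3c6, a subunit of an RNA polymerase III factor (0.55-fold, adjusted p = 0.0433), Eln, elastin (0.591-fold, adjusted p = 0.0153), and the unannotated transcripts Gm43187 (0.0677-fold, adjusted p = 0.00265), Gm45477 (0.247-fold, adjusted p = 0.011) and Gm38340 (0.41-fold, adjusted p = 0.018). Sox11, Rbpj, Vrtn, Fam186a, Tdrd6, Nkain3, 4930430F08Rik, Gtf3c6, Eln, Gm45477 and Gm38340 did not pass without 1 Gy replicate 1 (adjusted p 0.0624 to 0.162), Mycl, Sox11, Rbpj, Tdrd6, Nkain3, 4930430F08Rik, Gtf3c6, Eln and Gm38340 not without 1 Gy replicate 2 (adjusted p 0.0518 to 0.195), Fam186a, Tdrd6 and Gtf3c6 not without 1 Gy replicate 3 (adjusted p 0.0529 to 0.133). Sox11, Rbpj, Nkain3, 4930430F08Rik, Eln and Gm38340 did not pass without sham replicate 1 (adjusted p 0.0504 to 0.0997), Rbpj, Fam186a, Tdrd6, 4930430F08Rik, Gtf3c6, Gm45477 and Gm38340 not without sham replicate 2 (adjusted p 0.0545 to 0.141), Rbpj, Tdrd6, Nkain3 and Gtf3c6 not without sham replicate 4 (adjusted p 0.0655 to 0.156). Rbpj and Gtf3c6 did not pass with the offsets along the Ptc level (adjusted p 0.061 to 0.0698). Rbpj, Tdrd6, 4930430F08Rik, Gtf3c6 and Gm38340 did not pass by DESeq2 (adjusted p 0.0652 to 0.138), Sox11, Rbpj, Fam186a, Tdrd6, 4930430F08Rik, Gtf3c6, Eln, Gm45477 and Gm38340 not without both high-Y libraries (adjusted p 0.0722 to 0.214), Rbpj and Gtf3c6 not with a Y-linked covariate (adjusted p 0.0551 to 0.061). Rbpj did not pass with offsets along abundance (adjusted p = 0.071). The fold became 0.0848 in Vrtn, 0.194 in Fam186a and 0.153 in Gm45477 with the offsets, 0.0364 in Gm43187 without 1 Gy replicate 1, 0.0783 in Vrtn and 0.103 in Gm43187 without 1 Gy replicate 2, 0.0413 in Gm43187 without both high-Y libraries.

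**Figure D3:**
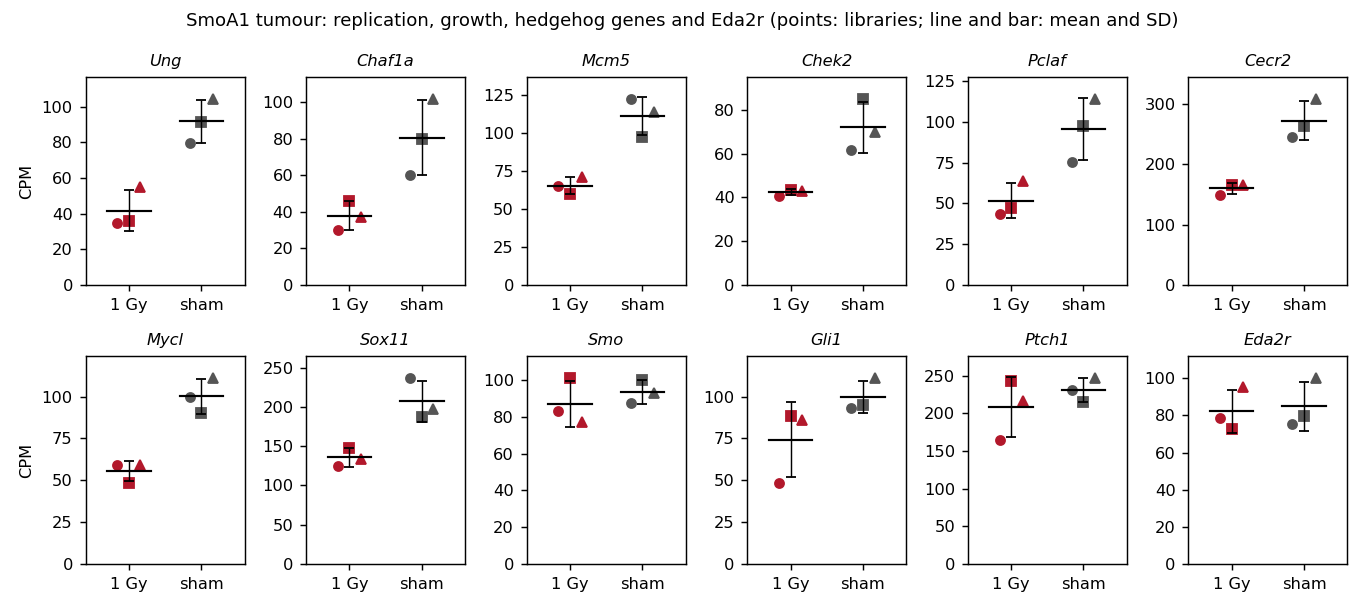
Level (y axis, CPM, starting at 0) of 8 genes that fell, of Smo, Gli1 and Ptch1, and of Eda2r in 3 libraries after 1 Gy (left of each panel) and 3 sham libraries (right), with points, lines and bars as in the plot of inflammatory genes. The 1 Gy libraries lie below the sham libraries in the 8 genes from Ung to Sox11, while those of Smo, Ptch1 and Eda2r overlap.

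The hedgehog pathway, which drives these tumours, gave no call among 38 genes tested, with a median log2 fold change of -0.099. Smo, which the transgene encodes in its activated form, had 82.98, 101 and 77.2 CPM in the 1 Gy libraries, against 87.4, 100.2 and 93.2 CPM in the sham libraries (adjusted p = 0.862). Gli1, a transcription factor and target of the pathway, had 48.3, 88.2 and 86.1 CPM in the 1 Gy libraries, against 93.5, 95.1 and 111 CPM in the sham libraries (adjusted p = 0.334). Its groups did not overlap, with 1 Gy replicate 1 far below the rest. Ptch1, the hedgehog receptor and a target, had 164, 243 and 217 CPM in the 1 Gy libraries, against 231, 215 and 247 CPM in the sham libraries (adjusted p = 0.708). Pax2 had 54.3, 49.8 and 11.9 CPM in the 1 Gy libraries, against 13.6, 20.6 and 13.7 CPM in the sham libraries (adjusted p = 0.14). In sham libraries scaled separately, Smo averaged 93.6 ± 6.39 CPM in SmoA1 and 45.6 ± 0.24 CPM in BL6 (SD, n = 3 each), a difference that was not tested here. No neural stem cell gene of 21 passed either, among them Sox1 and Vim (adjusted p = 0.231 and 0.252).

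Of 39 targets of p53 tested 1 rose, beside 1.98% of all genes tested. Plk2, a polo-like kinase, had 72.4, 85.6 and 92.1 CPM in the 1 Gy libraries, against 40.7, 53.9 and 38.4 CPM in the sham libraries (1.87-fold, adjusted p = 0.016). The median log2 fold change over the 39 was 0.04, and 21 were positive. Positive were 8 of 12 genes of cell cycle arrest, 6 of 13 of cell death and 7 of 14 of feedback and metabolism. The groups did not overlap in 12 of the 39, in either direction, beside 18.5% of all genes tested. Cdkn1a, the p21 cell cycle inhibitor, had 30, 40 and 26 counts in the 1 Gy libraries and 36, 42 and 52 counts in the sham libraries and did not pass (adjusted p = 0.403). It fell outside the rule for named genes and was chosen after its values were seen. Eda2r, a death-domain receptor of the TNF family and a p53 target, had 78.5, 72.8 and 95.1 CPM in the 1 Gy libraries, against 75.4, 79.6 and 100.01 CPM in the sham libraries (adjusted p = 0.939), so its groups overlapped. In BL6 cerebellum the same gene rose, with 79.3, 89.6 and 91.7 CPM in the 1 Gy libraries and 34.3, 23.6 and 25.4 CPM in the sham libraries, 3.15-fold (adjusted p = 0.000269). Its change differed between tumour and cerebellum, by -1.70 on the log2 scale as SmoA1 minus BL6 (edgeR interaction, adjusted p = 0.00265). The SmoA1 sham level of Eda2r was already close to the irradiated BL6 level, as each set of libraries was scaled by itself. Plk2 did not pass without 1 Gy replicate 2 or 3 or sham replicate 1 or 4 (adjusted p 0.0511 to 0.103).

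**Figure D4:**
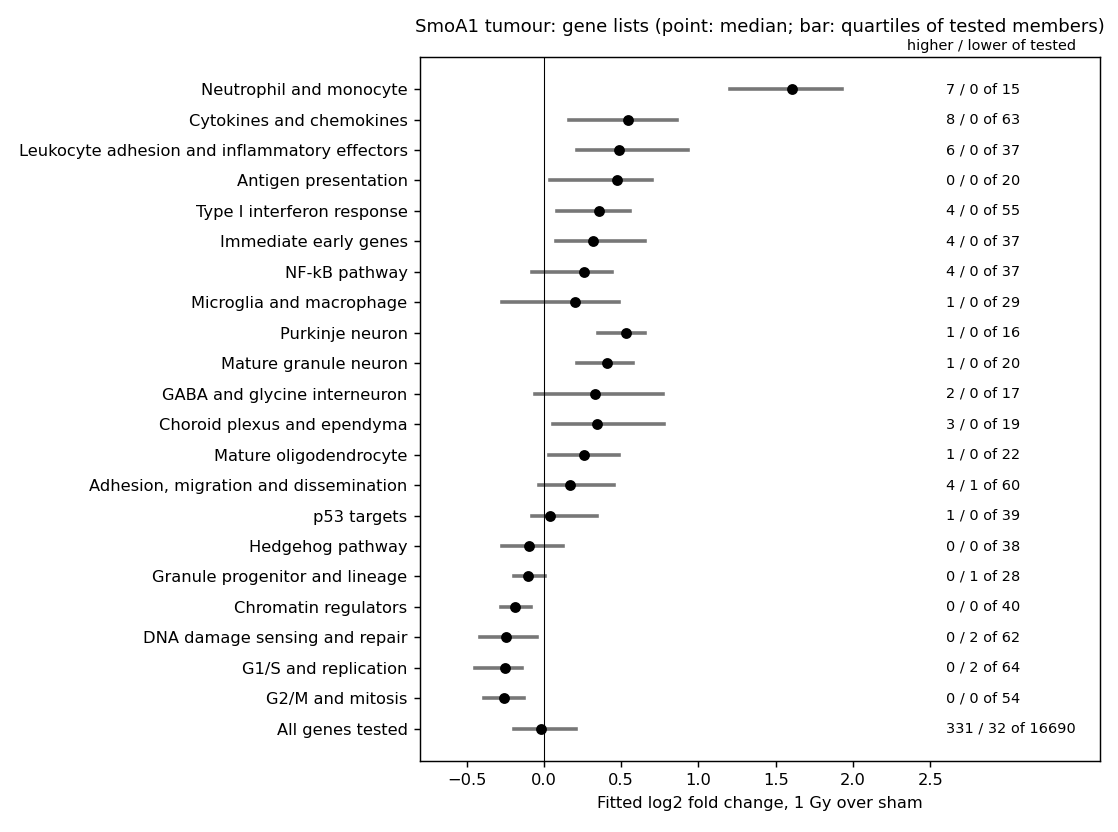
Median (point) and quartiles (bar) of the fitted log2 fold change, 1 Gy over sham (x axis), of the tested members of 21 gene lists and of all 16690 genes, with the number called higher and lower of those tested at the right. Medians run down to -0.26 in G2/M and mitosis, beside -0.02 over all genes. In neutrophil and monocyte markers only 15 of 26 members passed the filter on low counts, so their median is not that of the whole list.

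The change in SmoA1 tumours differed from that in BL6 cerebellum for 193 of 18188 genes (1.06%), 181 with the larger value in SmoA1 (0.995%) and 12 with the smaller (0.066%), by an edgeR interaction over 12 libraries. An unadjusted p under 0.05 was found for 2044 genes (11.2%). In BL6 itself 2 of 15918 genes differed (0.0126%), Eda2r and Xist, with 634 at an unadjusted p under 0.05 (3.98%) and 1 by DESeq2 (0.00628%). Xist, a sex-linked gene, had 106.9, 169.3 and 87.2 CPM in the BL6 1 Gy libraries. It had 211.7, 253 and 233.8 CPM in the BL6 sham libraries (0.505-fold, edgeR adjusted p = 0.00284). Whether the sex of the mice differed between the BL6 groups, and its part in the difference from SmoA1, was not tested. Of the 331 genes that rose in SmoA1, 231 could be tested in BL6, and 97 of these had a positive log2 fold change with a median of -0.04. Single libraries moved the count of 193 widely, to 126, 86 and 291 genes without SmoA1 1 Gy replicates 1, 2 and 3, 88 without BL6 1 Gy replicate 4, and 83, 100 and 112 without BL6 sham replicates 1, 2 and 3.

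The BL6 libraries also place the levels. Over the 330 risers with a known length, the median level per exonic kb was 8.51 to 9.98 CPM per kb in the SmoA1 1 Gy libraries and 2.24 to 3.23 CPM per kb in the SmoA1 sham libraries, while in BL6 it was 6.81 to 8.22 CPM per kb after 1 Gy and 7.02 to 7.83 CPM per kb with sham. Over the 32 genes that fell it was 6.69 to 7.30 CPM per kb in SmoA1 after 1 Gy and 12.8 to 15.9 CPM per kb in SmoA1 with sham, against 6.07 to 7.57 CPM per kb in BL6 after 1 Gy and 6.98 to 7.39 CPM per kb in BL6 with sham. Gene by gene, 188 of the 330 risers (57%) and 27 of the 32 genes that fell (84.4%) had a BL6 level nearer to SmoA1 1 Gy than to SmoA1 sham, and the rest did not. The call itself uses the SmoA1 levels, so these are descriptions with no test.

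Some gene lists lay to one side in this respect, in groups formed after the values were seen. The first such group took the lists of NF-kB, cytokines, leukocyte adhesion, interferon, neutrophils and monocytes, and T, NK and B cells. Of its 28 risers 25 had a BL6 level closer to SmoA1 sham than to SmoA1 1 Gy. The exceptions were Traf1, Fpr1 and Hdc. The median level of the 28 was 48.3 CPM in SmoA1 after 1 Gy and 16.6 CPM in SmoA1 with sham. In BL6 it was 11.8 CPM after 1 Gy and 11.6 CPM with sham. Vcam1 is an example, at 120 CPM in SmoA1 after 1 Gy and 70.3 CPM in SmoA1 with sham, beside 69.8 CPM in irradiated BL6 and 58.8 CPM in sham BL6 (CPM of raw gene counts). All 16 risers in the neuron, glia, cilia, channel, receptor and synapse lists instead had a BL6 level closer to SmoA1 1 Gy. Their median level was 66.0 CPM in SmoA1 after 1 Gy and 26.2 CPM in SmoA1 with sham, and 84.2 CPM in irradiated BL6 and 87.1 CPM in sham BL6. The 4 called replication and repair genes were at a median of 39.2 CPM in SmoA1 after 1 Gy and 80.8 CPM in SmoA1 with sham, and at 41.2 CPM in irradiated BL6 and 40.03 CPM in sham BL6. Other lists were mixed: BL6 was nearer to SmoA1 1 Gy in 5 of 9 risers of the BMP, WNT, hypoxia, oxidative stress and oncofetal lists, in 2 of 4 immediate early risers and in 1 of 4 risers of adhesion and migration. Lyve1, the 1 riser of the microglia and macrophage list, lay outside these groups, with BL6 nearer to SmoA1 1 Gy. Its level was 30.9 CPM in SmoA1 after 1 Gy and 5.43 CPM in SmoA1 with sham. In BL6 it was 28.7 CPM after 1 Gy and 27.1 CPM with sham.

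**Figure D5:**
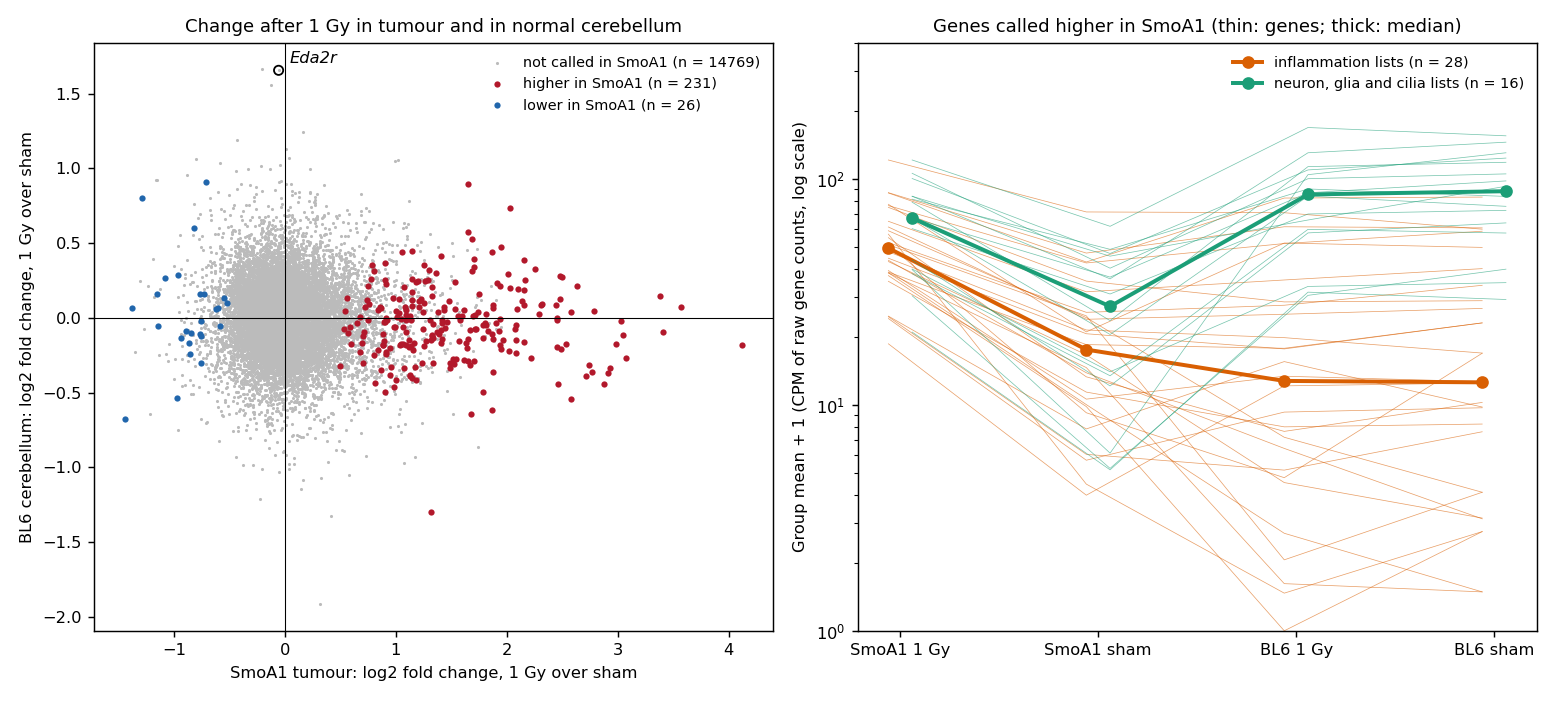
Left, the log2 fold change of 1 Gy over sham in SmoA1 tumour (x axis) and BL6 cerebellum (y axis) of the genes tested in both, with 231 genes called higher in SmoA1 in red, 26 called lower in blue and Eda2r circled. Right, the group mean + 1 (y axis, CPM of raw gene counts, log scale) of the called genes of the inflammation lists (28, orange) and of the neuron, glia and cilia lists (16, green) in the 4 groups (x axis), with thin lines for genes and thick lines for their median: the green median is higher in both BL6 groups than in SmoA1 sham, and the orange one is not.

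The Ptc libraries, far deeper and with none of these samples in common, gave no call by edgeR among 19571 genes (0%), 1421 genes at an unadjusted p under 0.05 (7.26%) and 321 by DESeq2 (1.65%). Over all genes tested in Ptc 49.98% were higher after 1 Gy, with a median log2 fold change of -0.000465. Of the 28 inflammation risers 21 could be tested in Ptc, and 19 of these were higher after 1 Gy, with a median log2 fold change of 1.67. None of the 21 passed. Il1rn averaged 21.04 CPM in Ptc after 1 Gy and 0.38 CPM in Ptc with sham, and Vcam1 69.6 CPM after 1 Gy and 22.3 CPM with sham. Of the 16 neuron, glia and cilia risers 14 could be tested in Ptc, and 13 of these were lower after 1 Gy, with a median of -2.80, again with no call. Gad1 averaged 20.8 CPM in Ptc after 1 Gy and 235 CPM in Ptc with sham. The Ptc values of Il1rn, Vcam1 and Gad1 are group means, and their spread between libraries is not given here. Large gaps between such means without a call may rest on single libraries. Over all 331 risers 256 could be tested in Ptc, and 143 of these were higher after 1 Gy, with a median log2 fold change of 0.303. The 4 replication and repair genes had a median of -0.066 there. Whether the changes in the 2 tumours differ was not tested, since their libraries differ in kind.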

How the data were processed

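RNA of SmoA1 brain tumours was sequenced after 1 Gy or sham. Per the labels it was total RNA, extracted with an RNeasy kit and depleted of ribosomal RNA. The authors deposited raw read counts per gene in files laid out as STAR writes them. The submitters' processing notes name mm10 and Cell Ranger 5.0.1, with the aligner not given in the sources used here. Column 2, which ignores strand, was used without its 4 lines that name no gene (unmapped, multimapping, no feature and ambiguous reads, together 86.5% to 94.1% of all reads). Of 53379 identifiers 53274 matched GENCODE M21 on GRCm38. The titles call the 4 files of a sample biological replicates, but their counts varied no more than draws from 1 library (variance to mean 0.858 to 0.925), so they were summed. Since no label states that numbered samples are separate animals, a p-value here reflects the spread of these libraries and nothing wider. Intervals and floors cover counting error only.

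The edgeR 4.0.16 quasi-likelihood test (filterByExpr, TMM, R 4.3.3) compared the 3 libraries of each group, with Benjamini-Hochberg adjustment over all genes tested and a threshold of 0.05. CPM and SD come from that fit of 6 libraries unless given as CPM of raw gene counts. Differences between SmoA1 and BL6 were tested as an interaction over 12 libraries. The method was tested on simulated counts with 200 changed genes (10 false calls among 16194 genes). Alternatives were DESeq2 1.42.0, RLE factors, 2 other filters, 1 strand column, a 12-library fit, a replicate block, loess offsets along abundance, a threshold of 0.01 and each library left out in turn. A Y-linked covariate, leaving out the 2 libraries with high Y-linked counts, and loess offsets along the gene's level in Ptc sham were added after the data were seen. Named genes, 134 in all, were Smo, Gli1 and Ptch1, the 12 largest changes per direction among called protein-coding genes with at least 5 CPM and no overlap, the 10 smallest p per direction, up to 5 called members per direction of each of 49 lists or the 2 with the smallest p where none was called, and the 5 smallest p per direction of the interaction. Genes of the rule with no place in the text are not reported. The lists, rule and comparison were chosen with earlier results of these data known. Tables were handled in Python 3.11.15 with pandas 2.3.3 and figures drawn with matplotlib 3.10.9.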

Additional observations from a re-analysis of the deposited data

Results flagged for a closer look

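The change after 1 Gy differed between SmoA1 tumour and BL6 cerebellum in 36 of the named genes given here (edgeR interaction over 12 libraries, adjusted p under 0.05), and values below are the log2 change in SmoA1 minus that in BL6. Among inflammatory, signalling and adhesion genes the difference was positive in Birc3 (1.34), Hdc (1.82), Nr4a3 (1.29), Bdnf (1.38), Fosb (1.83), Cdh1 (1.79), Cd44 (1.22), Inhba (1.64) and Ndrg1 (1.39). Among neuron and glia genes it was positive in Gad1 (1.33), Slc6a5 (1.6), Sv2c (1.49), Htr5a (2.12), Htr7 (3.1), Chn2 (1.41) and Etnppl (1.06), and among genes of cilia and choroid plexus in Dnah6 (1.84), Dnah10 (1.78), Dnah11 (1.44) and Prlr (3.3). It was also positive in Gm3294 (3.26), Slc26a7 (2.7), Vwa5b1 (3.52), Scin (3.35), Ppl (2.08), Tnn (3.23), Slc5a1 (3.5), Ptger3 (4.28), Igf2bp2 (3.14) and Slc4a1 (2.91). It was negative in 6 genes, Eda2r (-1.7), Chaf1a (-1.34), Prr12 (-1.19), Dcdc5 (-1.85), Gm43187 (-4.26) and Gm38340 (-2.08). Of these 6, Eda2r was higher after 1 Gy in BL6 and not called in SmoA1, and Prr12 and Dcdc5 were not called in SmoA1 either (adjusted p = 0.0589 and 0.0641).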

How the results depend on the processing

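Counts below are genes called, against 331 higher and 32 lower in SmoA1. DESeq2 gave 209 and 16, no filter 828 and 141, a mean of at least 1 CPM 553 and 61, 1 strand column 158 and 16, 12 libraries in 1 fit 692 and 74, and an adjusted p under 0.01 124 and 4. Offsets along the Ptc level, chosen after seeing the data, gave 177 and 55, and leaving out both libraries with high Y-linked counts, also chosen then, gave 230 and 10. Leaving out 1 library gave 103 to 398 higher and 6 to 47 lower in SmoA1, 83 to 291 for the difference from BL6, 0 to 6 in BL6 and 0 in Ptc. For the difference from BL6 (193), DESeq2 gave 101 and no filter 449. For BL6 (2) they gave 1 and 16, and for Ptc (0) 321 and 1. With sample number as a replicate block, SmoA1 had 436 higher and 115 lower, the difference from BL6 70, BL6 7 and Ptc 0. The block kept 259 of the 331 and 24 of the 32, and 18 of the named genes called no longer passed. The groups share only numbers 1 and 2 (correlations of deviations 0.0757 and 0.0315, beside -0.0658 to 0.0364 for unlike numbers). With only 2 shared numbers, whether they pair the libraries cannot be told. With the block 79.1% of the SmoA1 calls were higher, with the offsets along the Ptc level 76.3%, and 91.2% without either. On 1 strand column only 8787 genes were tested, so some named genes had no value there. Of 96 named genes called, 25 passed under every alternative that gave a value for them and none changed sign. The cause of these differences was not tested. In counts simulated with the depth, spread and number of these libraries, 64 of 100 2-fold and 90 of 100 4-fold changes were recovered. Depth was not varied, so its part in the missed changes was not tested.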

Other observations

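Genes below were chosen after their values were seen, stand for no gene group and rose by edgeR's test. Sh2d2a, a T cell adaptor, had 36.2, 48.6 and 60.9 CPM in the 1 Gy libraries, against 12.1, 5.14 and 4.11 CPM in the sham libraries (6.86-fold, adjusted p = 0.000804), although of the T, NK and B cell list 1 of 7 tested genes was called and Cd3e, Cd3d, Cd3g and Cd8a were below the filter on low counts. Cytip, a cytohesin-binding protein of leukocytes, had 96.6, 75.4 and 92.1 CPM in the 1 Gy libraries, against 39.2, 25.7 and 20.6 CPM in the sham libraries (3.1-fold, adjusted p = 0.000815). Zfp750, a factor of epidermal differentiation, had 30.2, 24.3 and 17.8 CPM in the 1 Gy libraries, against 1.51, 2.57 and 4.11 CPM in the sham libraries (8.27-fold, adjusted p = 0.00347), and Dsp, a desmosome protein, had 25.6, 53.7 and 38.6 CPM in the 1 Gy libraries, against 10.6, 8.99 and 4.11 CPM in the sham libraries (4.98-fold, adjusted p = 0.00347), although none of 5 keratins tested passed. The groups overlapped in none of the 4 genes. Sh2d2a, Cytip and Zfp750 passed under every alternative that gave a value. Dsp did not pass without 1 Gy replicate 2 (adjusted p = 0.077). The fold became 3.82 in Sh2d2a and 3.27 in Dsp with the offsets.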
